A study of Mus musculus with 17 samples.

Results

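Expression of 10 genes of the vascular endothelium was followed in whole mouse embryos at E12.5 that carried either of 2 mutant alleles of *Klf3*. The genes were *Sox18*, *Sox17*, *Sox7*, *Plvap*, *Kdr*, *Tie1*, *Tek*, *Cdh5*, *Pecam1* and *Eng*. They were chosen by name as endothelial genes, with earlier results of these data known. All 10 of the 10 were measured, each by 1 probe set, among 39137 probe sets and 22180 genes on the array. RNA of 17 embryos was hybridized, with 1 array per RNA sample, in 5 groups. These were 3 *Klf3* H275R homozygotes, 4 *Klf3* H275R heterozygotes, 4 CH homozygotes, 2 CH heterozygotes and 4 WT embryos. KLF3 is a Krüppel-like transcription factor. H275R is an ENU-induced missense change in its zinc finger region, in a line kept by breeding with B6 mice. The CH allele is a gene trap in intron 1 of *Klf3* in mice derived from embryonic stem cells on a mixed B6 and 129 background. No embryo was treated, and the alleles were present in every cell of the embryo. Litter, sex and strain background were not stated for single embryos, and the design matched litters only where that could be done. The p-values therefore measure the spread between these samples, part of which may be shared within a litter.

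Endothelial cells line every blood vessel. SOX18, SOX17 and SOX7 are the F group of SOX transcription factors, which act in the forming arteries, veins and lymphatic vessels. KDR is the main signaling receptor for VEGFA, and TIE1 and TEK are the paired receptors of the angiopoietin system. Endoglin, the product of *Eng*, is a co-receptor for ligands of the TGF-β and BMP family on endothelial cells. CDH5 (VE-cadherin) and PECAM1 hold endothelial cells together at their junctions, and PLVAP forms the diaphragms of fenestrae and caveolae. KLF3 binds CACCC elements in DNA and in most settings acts as a repressor. The comparisons asked whether a point mutation and a gene trap of *Klf3* altered the RNA of these genes at E12.5. Values come from RNA of the whole embryo, so fewer endothelial cells and less RNA per cell cannot be told apart.

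Promoter sequence was available for 4 of the 10 genes (*Kdr*, *Tie1*, *Tek* and *Eng*) in the RefSeq table of the assembly GRCm38.p6, and the other 6 (*Sox18*, *Sox17*, *Sox7*, *Plvap*, *Cdh5* and *Pecam1*) are named only. Each window held 250 bases before and 50 bases after the start site. It was searched on both strands for CACCC, the core of the element that KLF3 binds, and for ACAAT, the core that SOX factors recognise, which do not overlap as words. *Eng* held 4 matches to CACCC, *Tie1* held 3, and *Kdr* and *Tek* held 1 each. *Tek* alone of the 4 also held ACAAT, with 2 matches. The window of *Eng*, which held the most CACCC matches, and that of *Tek*, which held both words, are shown 5′ to 3′ on the strand of the gene with CACCC (or its reverse complement GGGTG) in capitals.
Eng, chr2:32646345-32646644, plus strand: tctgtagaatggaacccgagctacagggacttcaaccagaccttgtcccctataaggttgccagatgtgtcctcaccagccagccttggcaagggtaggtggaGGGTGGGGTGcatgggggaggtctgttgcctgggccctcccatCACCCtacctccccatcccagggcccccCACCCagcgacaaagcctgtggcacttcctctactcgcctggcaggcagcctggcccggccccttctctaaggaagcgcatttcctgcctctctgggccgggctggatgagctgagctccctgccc
Tek, chr4:94739039-94739338, plus strand: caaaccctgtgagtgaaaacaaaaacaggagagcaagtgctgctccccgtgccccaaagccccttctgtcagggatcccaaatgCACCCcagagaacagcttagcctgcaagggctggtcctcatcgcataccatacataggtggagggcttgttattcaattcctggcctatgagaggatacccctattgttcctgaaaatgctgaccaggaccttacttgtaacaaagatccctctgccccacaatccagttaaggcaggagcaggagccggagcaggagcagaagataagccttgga
In *Eng* the CACCC matches began at positions −147, −142, −104 and −76 from the start site, the farther pair of them on the opposite strand. In *Tek* the CACCC match began at −166 and the ACAAT matches at −63 (opposite strand) and −7. Of all 32851 promoters of this length, 57.5% held CACCC and 31.0% held ACAAT on either strand. A match of these letters is common, and no binding was measured here.

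The allele was visible in *Klf3* itself. *Klf3* was at 5.27, 5.62, 5.73 and 6.13 in CH homozygotes on the log2 scale of the deposited values, against 9.80, 9.48, 9.61 and 9.55 in WT embryos (difference −3.92, limma adjusted p = 5.18e-09), and at 9.65, 9.33 and 9.38 in H275R homozygotes. The first principal component of the arrays held 19.4% of the variance. It placed WT 4 (score 20.1) among the 6 CH arrays (4.34 to 32.1), with the other 10 arrays between −29.2 and −0.45, so that values that WT 4 moved by over 1.5 times are given with and without it. *Kdm5d* on the Y chromosome was high in H275R homozygote 1, CH homozygote 3, CH heterozygote 1 and WT 2 alone. The array medians were 6.68 to 6.78, and the 10 endothelial genes lay between 6.96 and 11.14 in every array. The number of arrays limits the precision.

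The genes of the SOXF group were measured at different spreads. *Sox18* was at 8.37, 8.11 and 8.18 in H275R homozygotes, at 8.25, 8.41, 7.94 and 7.85 in H275R heterozygotes, at 7.70, 7.86, 7.70 and 7.43 in CH homozygotes, at 7.69 and 7.35 in CH heterozygotes, and at 7.96, 8.05, 8.02 and 7.55 in WT embryos. All 3 H275R homozygotes were above all 4 WT embryos, and 3 of the 4 WT embryos were above all 6 CH embryos, with WT 4 as the exception. The group means ran in the order H275R homozygotes (8.22 ± 0.135, SD, n = 3), H275R heterozygotes (8.11 ± 0.263, n = 4), WT (7.89 ± 0.233, n = 4), CH homozygotes (7.67 ± 0.176, n = 4) and CH heterozygotes (7.52, n = 2). No pair of neighbours in that order differed past the test. The SD of *Sox18* over the 17 arrays, 0.309, was larger than that of 94.9% of all genes.

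*Sox7* was at 7.68, 7.85 and 7.53 in H275R homozygotes, at 7.59, 7.90, 7.59 and 7.62 in H275R heterozygotes, at 7.59, 7.37, 7.42 and 7.42 in CH homozygotes, at 7.47 and 7.17 in CH heterozygotes, and at 7.60, 7.59, 7.42 and 7.49 in WT embryos. The 2 highest arrays were H275R homozygote 2 and H275R heterozygote 2, and the lowest was CH heterozygote 2. *Sox17*, the member of the group best known from arteries and endoderm, had a narrower range. It was at 7.39, 7.24 and 7.09 in H275R homozygotes and at 7.18, 7.15, 6.96 and 7.10 in WT embryos. In the other groups *Sox17* lay between 7.09 and 7.33, and every group overlapped every other. The genotype means of *Sox17* ran only from 7.10 to 7.24.

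**Figure D1:**
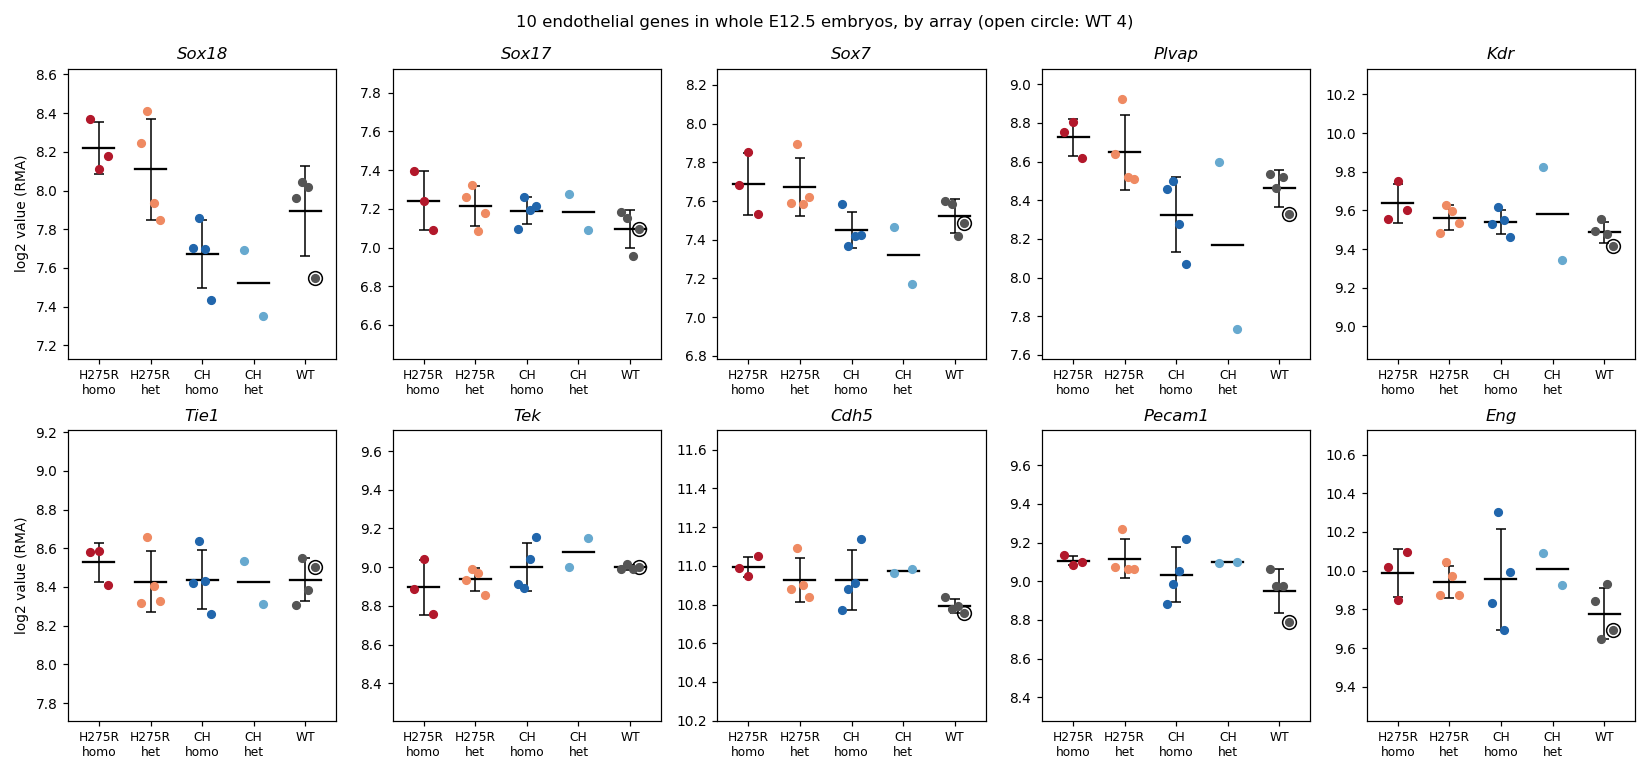
Deposited log2 value of each of the 10 endothelial genes (y axis, log2 units) by genotype (x axis: H275R homozygotes, H275R heterozygotes, CH homozygotes, CH heterozygotes, WT). Each point is 1 array, WT 4 is ringed by an open circle, and the bar and whiskers give the mean and SD (no SD for the 2 CH heterozygotes). *Sox18* lay at 8.11 to 8.37 in H275R homozygotes and at 7.35 to 7.86 in the 6 CH embryos, with 3 WT embryos between these ranges.

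*Plvap*, a marker of permeable vessels, followed the pattern of *Sox18*. It was at 8.75, 8.80 and 8.62 in H275R homozygotes, at 8.64, 8.92, 8.52 and 8.51 in H275R heterozygotes, at 8.46, 8.50, 8.28 and 8.07 in CH homozygotes, at 8.60 and 7.74 in CH heterozygotes, and at 8.54, 8.46, 8.52 and 8.33 in WT embryos. All 3 H275R homozygotes were above all WT embryos. The 2 CH heterozygotes were 0.86 log2 units apart, the widest gap within this genotype among the 10 genes. The SD of *Plvap* over the 17 arrays, 0.277, was larger than that of 92.6% of all genes.

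The receptor genes varied less. *Kdr*, which lies on chromosome 5 as *Klf3* does, was at 9.56, 9.75 and 9.60 in H275R homozygotes, at 9.53, 9.62, 9.55 and 9.46 in CH homozygotes, at 9.82 and 9.34 in CH heterozygotes, and at 9.49, 9.56, 9.48 and 9.42 in WT embryos. Its highest and its lowest array were thus both CH heterozygotes, 1 embryo each. *Tie1* ranged over 0.40 log2 units (8.26 to 8.66), and its group means lay between 8.42 and 8.53. *Tek* was the least variable member, with an SD of 0.0993 over the 17 arrays, larger than that of 17.9% of genes. It was at 8.89, 9.04 and 8.76 in H275R homozygotes and at 8.99 to 9.02 in the 4 WT embryos, which makes it the only member with a lower mean in H275R homozygotes than in WT.

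The co-receptor gene *Eng* was at 10.02, 9.85 and 10.09 in H275R homozygotes, at 9.83, 10.30, 9.69 and 9.99 in CH homozygotes, at 10.09 and 9.93 in CH heterozygotes, and at 9.84, 9.65, 9.93 and 9.69 in WT embryos. CH homozygotes 2 and 3 alone spanned nearly its whole range. The junction gene *Cdh5* was at 10.99, 10.95 and 11.05 in H275R homozygotes, at 10.88, 11.09, 10.90 and 10.84 in H275R heterozygotes, at 10.77, 10.88, 10.91 and 11.14 in CH homozygotes, at 10.96 and 10.98 in CH heterozygotes, and at 10.84, 10.78, 10.79 and 10.76 in WT embryos. The 4 WT embryos were below every other embryo but CH homozygote 1, which lay among them. *Pecam1* was at 9.13, 9.09 and 9.10 in H275R homozygotes, at 8.88, 8.99, 9.05 and 9.22 in CH homozygotes, at 9.10 and 9.10 in CH heterozygotes, and at 9.06, 8.97, 8.97 and 8.79 in WT embryos. Its order of embryos was close to that of *Cdh5*.

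H275R homozygotes were compared with WT to ask what the point mutant protein in homozygous form did to these genes. The mean was higher for 9 of the 10, with *Tek* as the exception, and the median difference was 0.16 log2 units, beside 0.007 over all 22180 genes, of which 52.8% had a difference above 0. None of the 10 passed the test at an adjusted p under 0.1, beside 0.0128% of the 39137 probe sets (limma with Benjamini-Hochberg adjustment over all of them). The largest differences were those of *Sox18* (0.33, 1.25-fold, SE 0.152, 95% CI 0.002 to 0.65, adjusted p = 0.986) and *Plvap* (0.26, 1.20-fold, SE 0.117, adjusted p = 0.977). *Eng* differed by 0.21, *Cdh5* by 0.20, *Sox7* by 0.16, *Pecam1* by 0.16, *Kdr* by 0.15, *Sox17* by 0.14, *Tie1* by 0.09 and *Tek* by −0.10. Before adjustment, 4 of the 10 (*Sox18*, *Plvap*, *Kdr* and *Cdh5*) had a limma p under 0.05, beside 5.06% of all probe sets. In 4 of the 10 (*Sox18*, *Plvap*, *Cdh5* and *Pecam1*) all 3 homozygotes were above all 4 WT embryos, beside 3.59% of all genes. The 10 genes were chosen with earlier results of these data known, so these shares are a description and not a test. Without WT 4, the difference of *Sox18* was 0.21, that of *Plvap* 0.22, that of *Pecam1* 0.10 and the median 0.15. *Sox17* was at 0.07 without H275R homozygote 1, and *Sox7* at 0.08, *Kdr* at 0.09 and *Tek* at −0.18 without H275R homozygote 2. *Sox17* was at 0.22 and *Tek* at −0.03 without H275R homozygote 3.

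In H275R heterozygotes vs. WT the mean was higher for 8 of the 10 and the median difference was 0.14, beside 0.006 over all genes. None of the 10 passed, and 0 of the 39137 probe sets did (0%). At an unadjusted limma p under 0.05 none of the 10 did either, beside 3.87% of probe sets. *Sox18* differed by 0.22 (SE 0.141), *Plvap* by 0.19 and *Pecam1* by 0.17. Without WT 4 the difference of *Sox18* was 0.10. Without H275R heterozygote 2 that of *Sox18* was 0.12, that of *Plvap* 0.09, that of *Sox7* 0.08 (0.15 with it), that of *Cdh5* 0.08 and the median 0.08. *Cdh5* was the gene in which all 4 heterozygotes were above all 4 WT embryos (difference 0.14, SE 0.080), a pattern that 1.65% of genes showed. The margin was narrow, with H275R heterozygote 4 at 10.8406 and WT 1 at 10.8399. Homozygotes were set directly against heterozygotes to ask for an effect of dose. There the median difference was 0.06, the differences ran from −0.04 (*Tek*) to 0.11 (*Sox18*), and again 0 of the 10 and 0% of probe sets passed, with none of the 10 at an unadjusted p under 0.05, beside 3.18% of probe sets. The 95% interval for *Sox18*, −0.21 to 0.44, included differences of either sign.

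**Figure D2:**
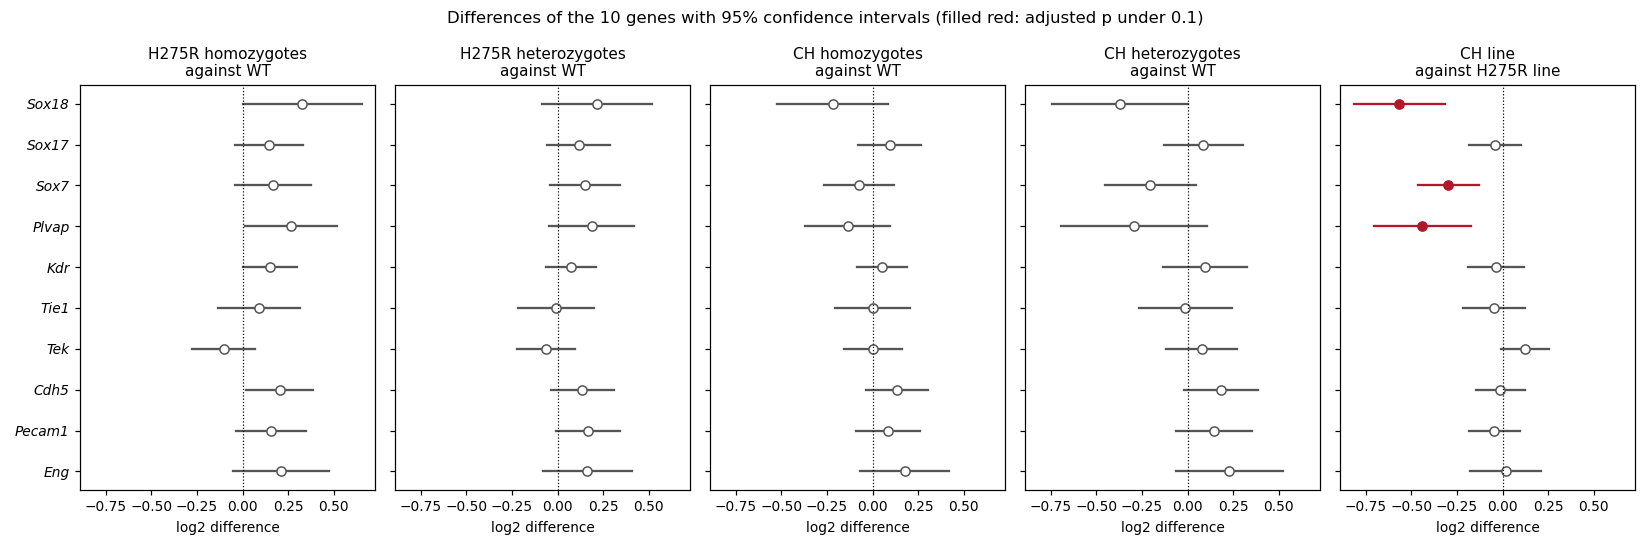
Differences of the 10 endothelial genes (x axis, log2 units, with 95% intervals from limma) in 5 comparisons (each of the 4 mutant genotypes vs. WT, and the CH line vs. the H275R line), with filled red points for an adjusted p under 0.1. In H275R homozygotes vs. WT, 9 of 10 points lie above 0, and in the CH line vs. the H275R line *Sox18* (−0.57), *Plvap* (−0.44) and *Sox7* (−0.30) lie below 0 with intervals clear of it.

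CH homozygotes, the embryos with the least *Klf3* RNA, had a mean above WT for 7 of the 10 genes, and the median difference was 0.03 (0.002 over all genes). None of the 10 passed, beside 0.0588% of probe sets, and none had an unadjusted p under 0.05, beside 8.95%. *Sox18* differed by −0.22 (SE 0.141, 95% CI −0.52 to 0.08), *Plvap* by −0.14 and *Sox7* by −0.07. On the other side of 0 were *Eng* (0.18, SE 0.114) and *Cdh5* (0.13, SE 0.080). Both of these genes had at least 1 CH homozygote inside the WT range. Without CH homozygote 2 *Eng* differed by 0.06, and without CH homozygote 4 *Cdh5* differed by 0.06, *Plvap* by −0.05 and *Sox18* by −0.14. Without WT 4, *Sox18* differed by −0.34 (adjusted p = 0.407). Every comparison with WT used the same 4 WT arrays, so the values of the mutant groups are not independent of each other.

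The CH heterozygotes, 2 embryos, were also set against WT. None of the 10 genes passed, beside 0.00511% of probe sets, and the median difference was 0.08, beside −0.007 over all genes. *Sox18* differed by −0.37 (SE 0.175, p before adjustment 0.0513, limma adjusted p = 0.839), and 0 of the 10 had an unadjusted p under 0.05, beside 5.94% of probe sets. *Plvap* differed by −0.29 (SE 0.187) and *Sox7* by −0.20 (SE 0.117). *Cdh5* (0.18) and *Pecam1* (0.15) were above all 4 WT embryos in both heterozygotes, as were 6.29% of genes. The difference of *Plvap* turned to 0.14 when CH heterozygote 2 was left out and was −0.72 without CH heterozygote 1, so that the sign of its mean depended on which of the 2 embryos was used. Without CH heterozygote 2 *Sox18* differed by −0.20 and *Sox7* by −0.06, and without CH heterozygote 1 *Sox7* differed by −0.35. Without WT 4 *Pecam1* differed by 0.09. CH homozygotes and CH heterozygotes were not separated by any of the 10 genes (median difference −0.02, 0 passed, beside 0.00511% of probe sets, with none at an unadjusted p under 0.05, beside 5.44%).

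The 2 homozygous mutants were then compared directly. CH homozygotes were below H275R homozygotes for 9 of the 10 genes, with *Tek* (0.11) as the exception, and the median difference was −0.08, beside −0.001 over all genes. None of the 10 passed, beside 0.164% of probe sets. *Sox18* was lower in all 4 CH homozygotes than in all 3 H275R homozygotes (−0.55, SE 0.152, 95% CI −0.87 to −0.22, adjusted p = 0.192), and so was *Plvap* (−0.40, SE 0.117, 95% CI −0.65 to −0.15, adjusted p = 0.214). This pattern was found in 6.15% of all genes. *Sox7* differed by −0.24 (SE 0.097, adjusted p = 0.328), and by −0.16 without H275R homozygote 2. These 3 were the members with an unadjusted p under 0.05, beside 12.6% of probe sets, and the other 6 that were lower differed by no more than 0.10.

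To use both genotypes of each line, the mean of the 2 CH genotypes was set against the mean of the 2 H275R genotypes over all 17 arrays. This comparison was not planned and was added once the values were known. Of the 10 genes 3 passed, each lower in the CH line, beside 4.81% of all probe sets that passed in either direction. *Sox18* had a lowest, median and highest value of 7.35, 7.70 and 7.86 in the 6 CH embryos, against 7.85, 8.18 and 8.41 in the 7 H275R embryos (difference −0.57, 0.675 times, SE 0.117, 95% CI −0.82 to −0.32, adjusted p = 0.0281). For *Sox7* the values were 7.17, 7.42 and 7.59 in CH embryos, against 7.53, 7.62 and 7.90 in H275R embryos (−0.30, SE 0.078, adjusted p = 0.0627). For *Plvap* they were 7.74, 8.37 and 8.60 in CH embryos, against 8.51, 8.64 and 8.92 in H275R embryos (−0.44, SE 0.125, adjusted p = 0.0835). In each of these 3 genes 5 of the 6 CH embryos were below all 7 H275R embryos, a pattern whose share among all genes was not counted. The sixth embryo was CH homozygote 2 for *Sox18*, CH homozygote 1 for *Sox7* and CH heterozygote 1 for *Plvap*. The other 7 genes differed by −0.05 to 0.12, the highest being *Tek* (SE 0.061, adjusted p = 0.332), and the median over the 10 was −0.04, beside −0.002 over all genes. That median was −0.09 without CH heterozygote 1, −0.005 without CH heterozygote 2 and −0.02 without H275R heterozygote 2.

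The allele, the line and its genetic background cannot be told apart in this comparison. WT 4, whose line is not given, was at 7.55 for *Sox18*, inside the CH range, and at 8.33 for *Plvap* and 7.49 for *Sox7*, also below all H275R embryos. WT 3 for *Sox7* (7.42) and WT 2 for *Plvap* (8.46) were below them too, while WT 1, 2 and 3 were at 7.96 to 8.05 for *Sox18*. The calls lean on CH heterozygote 2, the lowest embryo for all 3 genes. Without it, the difference of *Sox18* was −0.48 (limma adjusted p = 0.144), that of *Sox7* −0.22 (0.281) and that of *Plvap* −0.22 (0.375), and none passed. *Sox7* and *Plvap* also missed the threshold without H275R homozygote 1 (adjusted p 0.126 and 0.163), H275R homozygote 2 (0.127 and 0.143), H275R heterozygote 2 (0.102 and 0.143), CH homozygote 3 (0.103 and 0.128) or CH homozygote 4 (just above 0.1, and 0.134). *Plvap* alone missed it without H275R heterozygote 1 (0.130), WT 2 (0.102) or WT 3 (0.102).

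**Figure D3:**
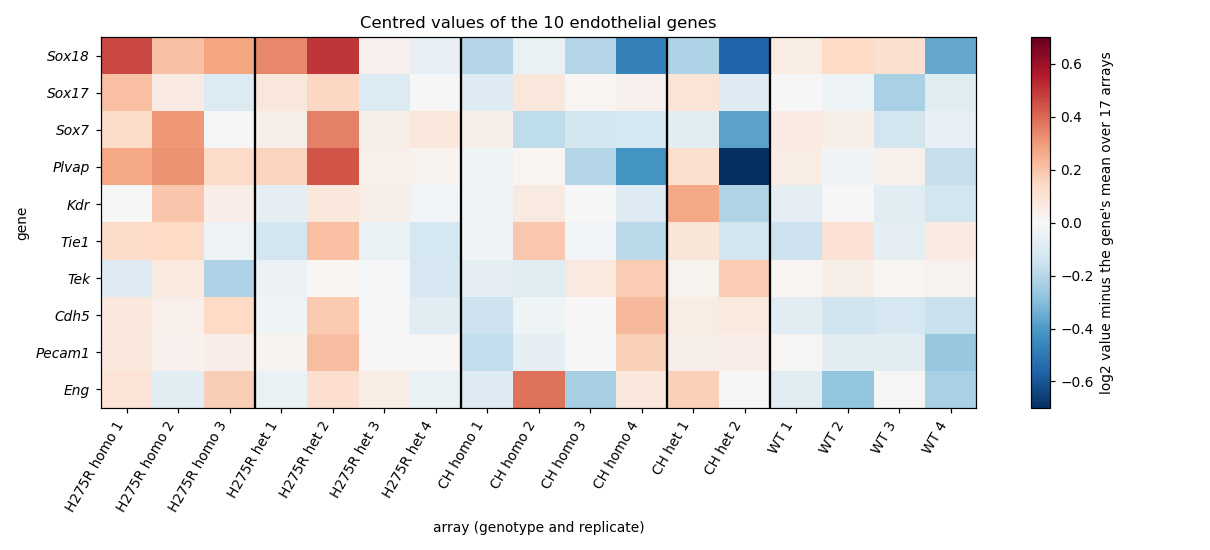
Log2 value of each endothelial gene (rows) in each of the 17 arrays (columns, by genotype and replicate) minus the mean of that gene over the 17 arrays, with red above and blue below the mean. H275R heterozygote 2 is above the mean for 10 of 10 genes, and CH heterozygote 2 and CH homozygote 4 show *Sox18* and *Plvap* low while *Tek*, *Cdh5* and *Pecam1* are not.

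The 10 genes did not vary as a single block. Over the 17 arrays 36 of the 45 pairs had a Pearson correlation above 0, with a median of 0.31, and with each genotype's mean taken out the median was 0.30. The closest pairs were *Cdh5* with *Pecam1* (r = 0.878, Spearman rho = 0.926, within genotype 0.873) and *Sox18* with *Plvap* (r = 0.871, rho = 0.850, within genotype 0.738). *Sox7* went with *Plvap* (r = 0.843, within genotype 0.687), and *Plvap* with *Kdr* (r = 0.660, within genotype 0.832). The within-genotype value of *Plvap* and *Kdr* leans on the 2 CH heterozygotes, which were 0.86 log2 units apart for *Plvap* and 0.48 for *Kdr*. *Cdh5* and *Plvap* showed almost no linear relation (r = 0.006), and *Tek* ran against *Plvap* (r = −0.580) and *Sox18* (r = −0.555). The points of each correlation are 17 embryos that share normalization and, in part, genotype, so these values are a description.

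By embryo, H275R heterozygote 2 was above the 17-array mean for 10 of the 10 genes and was the highest array for 5 (*Sox18*, *Sox7*, *Plvap*, *Tie1* and *Pecam1*). H275R homozygotes 1 and 2 were above it for 9 each, and CH heterozygote 1 for 8. At the other end, CH homozygote 1 was above the mean for 1 gene, and CH homozygote 3 and WT 4 for 2 each. CH heterozygote 2 was the lowest array for 4 genes (*Sox18*, *Sox7*, *Plvap* and *Kdr*), and CH homozygote 4 was the highest for *Tek* and *Cdh5* but the lowest for *Tie1*. The mean of the 10 genes thus ran from 8.62 in CH heterozygote 2 to 9.02 in H275R heterozygote 2. The genes outside the 10 whose values were most like that mean over the 17 arrays were *Coro1b* (r = 0.908), *Slc44a2* (0.906), *Mettl26* (0.900), *Ssbp4* (0.898), *She* (0.888), *Kazn* (0.885), *Irf2bp2* (0.883) and *Mgat5* (0.882). Within the 10, the correlation with the mean they form ran from −0.354 (*Tek*) to 0.871 (*Plvap*).

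The ligands and partner receptors of KDR, TIE1 and TEK came from a list of 13 genes, of which 12 were measured. In H275R homozygotes vs. WT, 10 of the 12 had a difference above 0 (median 0.11) and 0 passed, with 2 at an unadjusted p under 0.05, beside 5.06% of probe sets. *Vegfa*, the ligand of KDR, was higher in all 3 homozygotes than in all 4 WT embryos (0.41, SE 0.097, limma adjusted p = 0.564), as were 3.59% of genes. In CH homozygotes vs. WT *Vegfa* was also higher in all 4 embryos (0.37, SE 0.089, adjusted p = 0.232), a pattern in 2.32% of genes. The 2 CH heterozygotes were above all WT embryos for *Vegfa* as well (0.79, adjusted p = 0.555), as were 6.29% of genes. CH heterozygote 1 also had the highest mean of the hypoxia response genes (9.66), and the part of hypoxia in this difference was not tested. In the comparison of the CH line with the H275R line *Pgf*, which encodes the ligand of FLT1, passed and was lower (−0.33, limma adjusted p = 0.0599). *Vegfa* did not pass there (0.29, adjusted p = 0.321), and 4.81% of all probe sets passed in either direction. For the endoglin pathway (receptors, SMADs and ID genes) the median was 0.09 in H275R homozygotes vs. WT and −0.01 in CH homozygotes vs. WT, and none of the 13 genes passed in any of the 8 comparisons, nor had an unadjusted p under 0.05 in H275R or CH homozygotes vs. WT.

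Other endothelial transcription factors numbered 16. In H275R homozygotes vs. WT 11 were above 0 (median 0.05). The differences were led in size by *Tal1* (−0.40), *Lyl1* (−0.33) and *Gata2* (0.22), which are all shared with blood cells. In CH homozygotes vs. WT 1 of the 16 was above 0 (median −0.08), and *Gata2* was at −0.23. The difference of *Gata2* between the homozygotes themselves passed (CH minus H275R −0.45, SE 0.085, limma adjusted p = 0.0788), beside 0.164% of probe sets. In the comparison of lines *Gata2* (−0.37) and *Elk3* (−0.27), a repressor of the ETS family, were lower in the CH line (adjusted p = 0.0244 each), and *Tal1* was higher (0.37, adjusted p = 0.0996). Of the 16, 12 had a lower mean in the CH line, and *Gata2* and *Elk3* were the 2 of these that passed, beside 4.81% of probe sets.

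Among 13 Notch and arterial genes, 12 were above 0 in H275R homozygotes vs. WT (median 0.10) and 9 in CH homozygotes vs. WT (median 0.02), with 0 passing in either and 0 at an unadjusted p under 0.05. *Hey2*, a target of Notch signaling in arteries, was lower in the CH line than in the H275R line (−0.37, limma adjusted p = 0.0640), beside 4.81% of probe sets that passed. Of 24 measured genes of the endothelial surface and junctions, 20 were above 0 in H275R homozygotes vs. WT (median 0.09), with *Cd93* (0.30), *Vwf* (0.24) and *Adgrf5* (0.20) the largest without overlap, and 19 in CH homozygotes vs. WT (median 0.10), with *Icam2* (0.31), *Adgrf5* (0.26) and *Calcrl* (0.20). None of the 24 passed in either, with 4 in H275R homozygotes (beside 5.06% of probe sets) and 6 in CH homozygotes (beside 8.95%) at an unadjusted p under 0.05, all higher. In the comparison of lines *Egfl7*, a secreted endothelial factor, was higher in the CH line (0.32, adjusted p = 0.0262) and *Aplnr*, the apelin receptor, was lower (−0.25, adjusted p = 0.0573). The endothelial genes outside the 10 that passed between the lines went in both directions, beside 4.81% of all probe sets that passed. Whether these lists passed more often than that share was not tested.

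**Figure D4:**
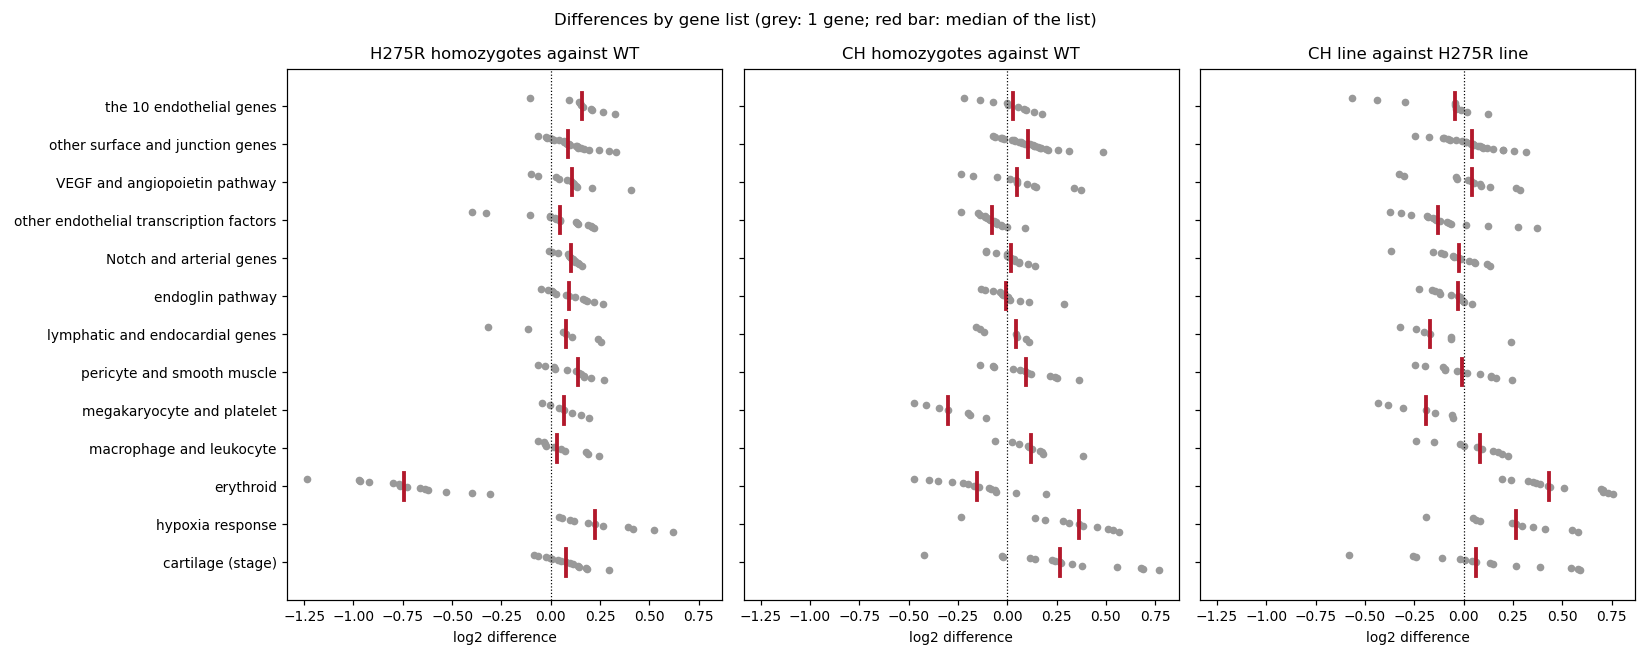
Log2 difference (x axis) of each gene (grey point) of the 13 gene lists (rows) in H275R homozygotes vs. WT, CH homozygotes vs. WT and the CH line vs. the H275R line, with the median of each list as a red bar. The 10 genes and the other endothelial lists have medians between 0.05 and 0.16 in H275R homozygotes vs. WT, where the erythroid list is at −0.75 and the hypoxia list at 0.22.

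Marker lists of other cells were measured in the same comparisons. In H275R homozygotes vs. WT all 14 measured erythroid genes were below 0 (median −0.75), and 1 of them, *Xk*, fell past the test (−0.77, adjusted p = 0.0756), beside 0.0128% of probe sets. The mean of the erythroid list was 8.39 to 8.82 in H275R homozygotes, against 9.03 to 9.58 in WT embryos. All 11 hypoxia response genes were above 0 in that comparison (median 0.22), with means of 8.78 to 9.06 in H275R homozygotes, against 8.58 to 8.75 in WT embryos. The median of 12 pericyte and smooth muscle genes was 0.14, that of 7 lymphatic and endocardial genes 0.08, that of 7 megakaryocyte genes 0.07 and that of 10 macrophage genes 0.03. The part of these cells and of hypoxia in the values of the 10 genes was not tested. A fit was made with the hypoxia mean as a covariate, but these means did not overlap between H275R homozygotes and WT. Such a fit cannot separate hypoxia from genotype. In that fit the median difference of the 10 genes in H275R homozygotes vs. WT was 0.14. *Sox18* differed by 0.38 and *Sox17* by 0.23, while *Plvap* differed by 0.16, *Kdr* by 0.05, *Eng* by −0.002 and *Tie1* by −0.01.

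In CH homozygotes vs. WT 10 of the 11 hypoxia genes were above 0 (median 0.36), all 7 megakaryocyte genes were below 0 (median −0.30) and the erythroid median was −0.16, with none of these genes passing. Between the lines all 14 erythroid genes were at a higher mean in CH embryos (median 0.44), and 4 passed, beside 4.81% of probe sets (*Ermap* 0.73, *Rhd* 0.69, *Kel* 0.71 and *Klf1* 0.76, adjusted p 0.0400 to 0.0949). The megakaryocyte gene *Gp9* (−0.43) and the cartilage gene *Sox9* (−0.58) were lower and the hypoxia gene *Higd1a* (0.41) was higher in that comparison. The mean of the cartilage list, which follows the stage of the skeleton, spread over 7.64 to 8.86 in CH homozygotes. It was 7.58 in CH heterozygote 1 and 8.60 in CH heterozygote 2, against 7.92 to 8.19 in the 7 H275R embryos. WT 4 was the lowest array at 7.56, and the other WT embryos were at 8.02 to 8.16. With the cartilage mean as a covariate *Sox18* differed between the lines by −0.57 (adjusted p = 0.0186) and *Plvap* by −0.42 (adjusted p = 0.0614). With the hypoxia mean these values were −0.63 (0.0422) for *Sox18* and −0.65 (0.0183) for *Plvap*. The hypoxia mean was 9.66 in CH heterozygote 1, and the next highest array was CH homozygote 2 at 9.09. With CH heterozygote 1 left out and no covariate, *Sox18* differed by −0.653 and *Plvap* by −0.655. The hypoxia fit cannot tell hypoxia from this 1 embryo, and the part of hypoxia in the line differences was not tested.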

How the data were processed

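RNA of 17 whole embryos was measured on Affymetrix ST arrays, and the authors deposited log2 values made with robust multiarray average (RMA), which removes background, equalizes the distributions of the arrays and combines the probes of a probe set. RMA fixes the overall level of each array, so the values are relative to the rest of the RNA. The submitters' processing notes name RMA and Partek, and the methods give a false discovery rate of 0.1. Scan dates, the annotation and whether the 17 arrays were normalized together are not stated. The deposited table had 0 value columns without a sample and 0 identical pairs of arrays.

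Probe sets were named from the platform annotation (23521 of 39137 have 1 symbol, and 23328 of these were matched in the GRCm38.p6 gene table). A gene with several probe sets was represented by its brightest on average. The values were tested as deposited, with no filter, in limma 3.58.1 (R 4.3.3, lmFit and eBayes, two-sided), with genotype as the factor, on the 15 arrays of the 4 genotypes in the methods or on all 17 where CH heterozygotes entered. Benjamini-Hochberg adjustment covered the 39137 probe sets, and an adjusted p under 0.1 passed. The fit was tested on simulated data.

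The 10 genes, the 13 gene lists and the rules were chosen with earlier results of these data known. All 10 genes are named. Of the other lists, genes that passed are named or, where none passed, up to 3 with the largest difference among those without overlap between groups, and the 8 genes most like the mean of the 10 are given. Megakaryocyte, macrophage, lymphatic, pericyte and Notch genes are given as counts or medians where they add nothing else. The comparison of lines was added once the values were known. Alternatives were other samples in the fit, another threshold, empirical Bayes settings, array weights, the methods' t-test, normalization, filters, 3 covariates, the replicate number as a block and each array left out in turn.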

Additional observations from a re-analysis of the deposited data

Results flagged for a closer look

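Each of the 10 genes in each genotype with 4 embryos was tested for a sample far from the others. Of these 30 sets of values 2 held one, and chance gives about 1 in 20. The sets share the same embryos and are not independent. Both were H275R heterozygote 2, at 7.90 for *Sox7* (the other 3 heterozygotes were at 7.59 to 7.62) and at 9.27 for *Pecam1* (the other 3 were at 9.06 to 9.08). The same embryo was the highest of the 17 for 5 of the 10 genes.

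*Sox18* (−0.57), *Plvap* (−0.44) and *Sox7* (−0.30) differed between the CH line and the H275R line past the threshold of the limma fit, in the comparison added once the values were known, and in each 5 of 6 CH embryos were below all 7 H275R embryos.

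In several pairs of mutant groups every embryo of the CH group lay on the opposite side of the WT mean from every embryo of the H275R group. For *Sox18*, CH homozygotes and H275R homozygotes did so, with a difference of −0.55, which was tested (limma adjusted p = 0.192) and did not pass. For *Sox18* in CH heterozygotes and H275R homozygotes (−0.70), *Sox7* in CH heterozygotes and H275R heterozygotes (−0.35) or H275R homozygotes (−0.37), and *Tek* in CH heterozygotes and H275R heterozygotes (0.14), the difference was not tested. Each of these last pairs holds 2 CH heterozygotes. For *Tek*, CH heterozygote 1 (9.001) was barely above the WT mean (8.999). For *Sox7*, H275R homozygote 3 (7.532) was barely above the WT mean (7.523). The share of all genes with this pattern was not counted.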

How the results depend on the processing

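None of the 10 genes passed in any of the 7 comparisons of single genotypes under any of the 31 settings (33 where CH heterozygotes entered). Of the values of single genes under an alternative, 2519 had the same outcome, passing or not, as in the main fit. Most of these passed in neither, and some changed sign (*Tie1* in H275R heterozygotes vs. WT under 7 of 31 settings). Only *Sox18*, *Sox7* and *Plvap* in the comparison of lines had a call to lose, and 21 of their values under an alternative lost it. The median difference of the 10 genes in H275R homozygotes vs. WT ran from 0.14 to 0.20 over the settings. With the hypoxia mean as a covariate the median was −0.068 in CH homozygotes vs. WT and −0.078 in CH heterozygotes vs. WT, and the cause was not tested. The hypoxia means of CH homozygotes (8.79 to 9.09) and CH heterozygotes (8.81 to 9.66) did not overlap those of WT (8.58 to 8.75). These fits therefore cannot separate hypoxia from genotype. The fit of CH heterozygotes includes CH heterozygote 1, whose hypoxia mean was 9.66, against 9.09 in the next highest array. With each array left out in turn the median ran from −0.065 to 0.14 in CH heterozygotes vs. WT and from −0.073 to 0.11 in CH homozygotes vs. CH heterozygotes, the extremes coming from the 2 CH heterozygotes. It ran from 0.080 to 0.17 in H275R heterozygotes vs. WT (the lowest without H275R heterozygote 2), from 0.023 to 0.057 in CH homozygotes vs. WT (the highest without WT 2), from −0.14 to −0.053 in CH homozygotes vs. H275R homozygotes, from 0.024 to 0.093 in H275R homozygotes vs. H275R heterozygotes and from −0.094 to −0.005 in the CH line vs. the H275R line. In the CH line vs. the H275R line 3 genes passed, 1 (*Sox18*) at an adjusted p under 0.05, and 0 to 3 with an array left out. *Sox18* passed under 32 of 33 settings, *Sox7* under 25 and *Plvap* under 21, and the 3 kept their sign in all of them. Of all probe sets, 1884 passed between the lines, from 301 without CH heterozygote 2 to 3836 with the cartilage mean as a covariate.

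With the replicate number as a block, the line differences passed for *Sox18* (adjusted p = 0.00706), *Sox7* (0.0383) and *Plvap* (0.0496), and no call of the 10 genes changed. Samples of the same number do not pair by the sources used here, and the correlations of their deviations ran from −0.143 to 0.429. The number of arrays, 2 to 4 per genotype, limits the precision.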
